A study of Mus musculus with 4 samples.

Results

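The Wnt ligand genes of the embryonic mouse limb bud were followed in forelimbs that lack Sonic hedgehog. The genes were chosen by name: Wnt2b, Wnt3, Wnt4, Wnt5a, Wnt5b, Wnt6, Wnt7b, Wnt10a, Wnt10b and Wnt11, 10 of the 17712 genes in the deposited expression table. RNA was sequenced from forelimbs of littermate Swiss Webster mouse embryos, an outbred stock, in 2 wild-type and 2 Shh null libraries. The age label reads E10.25 with 33 to 35 somites, and the source label reads E10.5, days of embryonic development. The labels name no Shh allele and no agent. They do not say how many embryos or limbs went into a library, and the design text calls the replicates technical, so each p-value reflects no more than library-to-library spread, which may be technical.

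Wnt proteins are secreted signalling proteins that carry a lipid, which the enzyme Porcupine attaches and which the carrier Wntless needs for their release. They bind Frizzled receptors. With the co-receptors Lrp5 and Lrp6 they stabilise β-catenin, which acts with LEF and TCF factors in the nucleus, the canonical pathway. With Ror or Ryk receptors they direct cell polarity and movement instead. In the limb bud, canonical Wnt signals from the ectoderm help to form the apical ectodermal ridge, a rim of epithelium needed for outgrowth, and to keep the mesenchyme beneath it undifferentiated, while Wnt5a in the distal mesenchyme and ridge orients cells and lengthens the limb.

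All 10 ligands share the site of lipid attachment, and it is printed here because it is the feature that marks each of these transcripts as a member of the family. Each coding stretch below is 30 bases long, read 5′ to 3′ from GENCODE M21 transcripts, with the codon of the lipid-carrying serine in capitals.
Wnt5a: aagtgtcatggagtgTCTggctcctgtagc
Wnt5b: aaatgtcacggagtcTCCgggtcctgcagc
Wnt11: aaatgccatggggtgTCTggctcctgctcc
Wnt4: aagtgtcacggggtgTCGggctcctgcgag
Wnt3: aaatgccacgggttgTCCggcagctgcgag
Wnt6: aagtgccatgggcttTCGggttcctgcgct
Wnt7b: aagtgtcacggtgtgTCAggctcctgtacc
Wnt10a: aaatgccacggcaccTCAggcagctgccag
Wnt10b: aaatgccatggaacgTCAggcagctgccaa
Wnt2b: aagtgtcacggtgtgAGTggctcctgtact
Over the 24 bases that encode the site itself (bases 4 to 27 of each line), 11 positions were the same in all 10 genes. Pairs of genes shared between 13 and 21 of the 24, and 6 pairs reached 21: Wnt10a with Wnt10b, Wnt7b with each of Wnt2b, Wnt4 and Wnt5a, and Wnt11 with each of Wnt4 and Wnt5a. Despite this likeness, no run of 50 bases from the longest coding transcript of each of the 10 occurred in a transcript of another Wnt gene, so reads of that length would not be shared within the family.

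The 10 genes spanned a wide range of levels. Expression is given as CPM, the reads of a gene scaled to library size with the authors' TMM factors, and ran from 0.948 CPM (27 reads, Wnt2b in wild type 1) to 89.7 CPM (Wnt5a in wild type 2). The smallest number of reads behind any member's value was 21, for Wnt10a in wild type 2. To compare genes, CPM was divided by the length of all annotated exons in kilobases. The longest coding transcript can be shorter, as in Wnt11 (3451 against 4137 bases) and Wnt7b (3400 against 4898). Ranks and overlaps between genes therefore depend on the length chosen. On this per-length scale Wnt5a (11.4 ± 0.134 CPM per kb, SD, n = 2) and Wnt6 (10.34 ± 2.68) led in wild type, and their libraries overlapped. Wnt5b (5.89 ± 0.419), Wnt3 (3.58 ± 0.306), Wnt11 (3.02 ± 0.415) and Wnt4 (2.03 ± 0.252) followed in separate steps, with no overlap from one to the next. The libraries of Wnt4 overlapped with those of Wnt7b (1.90 ± 0.556), and those of Wnt7b with Wnt10b (1.43 ± 0.443). Wnt10b was clear of the genes below it, and Wnt10a (0.526 ± 0.0808) and Wnt2b (0.290 ± 0.0909) stood lowest.

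In the Shh null libraries the order at the top was different. Wnt6 led with 17.0 ± 1.31 CPM per kb (SD, n = 2) and was clear of Wnt5a, which stood at 6.79 ± 0.243. Wnt5b (5.06 ± 0.211) and Wnt11 (5.01 ± 0.917) overlapped, as did Wnt11 and Wnt3 (4.53 ± 0.204). Wnt4 (3.51 ± 0.497), Wnt7b, Wnt10b, Wnt10a and Wnt2b kept their places below.

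**Figure D1:**
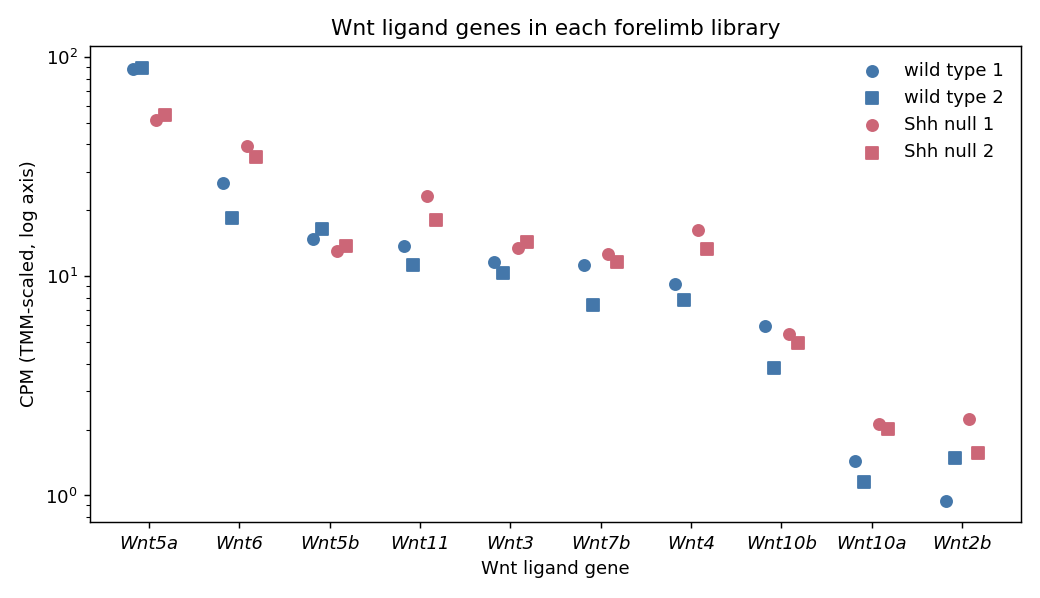
CPM of each Wnt ligand gene (log axis) in the 2 wild-type (blue) and 2 Shh null (red) libraries, circles for replicate 1 and squares for replicate 2, ordered by the wild-type mean. Wnt5a falls from 88.3 and 89.7 CPM to 51.8 and 54.5, while both red points lie above both blue points for 7 other genes.

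Between genotypes, Wnt5a was the member that changed by the test used here, and it fell by 40.3%. Of the 10 ligands, 0 were called higher and 1 lower (limma on log2(CPM + 1), adjusted p under 0.05), where 1.24% of the 13224 tested genes were called higher and 1.24% lower. At an unadjusted p under 0.05, 3 members were higher and 1 was lower, against 9.5% and 9.02% of all tested genes. By edgeR the counts were 0 higher and 1 lower (1.28% and 1.21% of tested genes), and by DESeq2 3 higher and 1 lower (1.91% and 2.06%). The authors' deposited table also has 3 members higher and 1 lower at a false discovery rate under 0.05, against 2.33% and 1.68% of all its genes. In 7 members both Shh null libraries lay above both wild-type libraries, as they did in 25.1% of tested genes, in 2 they lay below (25% of tested genes), and in 1 they overlapped. The median log2 fold change of the 10 was 0.38, beside a median of -0.00048 over all tested genes. The 1 CPM added before the logarithm draws fold changes toward 0 in low genes such as Wnt2b and Wnt10a, and this median depends on it.

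Wnt5a (chromosome 14, 28504750 to 28527448, plus strand, mm10) signals mainly through Ror2, and its loss shortens the limbs. It was measured at 88.3 and 89.7 CPM in wild type and at 51.8 and 54.5 CPM in Shh null. The wild-type libraries lay close together and well above both null libraries. The means were 89.0 ± 1.05 and 53.1 ± 1.90 CPM (SD, n = 2), a log2 fold change of -0.73 ± 0.10 (SE, 95% interval -0.96 to -0.51, limma adjusted p = 0.00522). Over pooled reads, 4144 in wild type and 2440 in Shh null, the ratio of null to wild type was 0.597 (95% counting interval 0.568 to 0.628). The authors' deposited table gives a log2 fold change of -0.74 with a false discovery rate of 2.55e-06. Without Shh null 1 the call ended (limma adjusted p = 0.0768) at a log2 fold change of -0.70. An antisense gene, Gm2670, overlaps Wnt5a exons and was not analysed here, and without known strand its reads could not be told apart from those of Wnt5a.

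Wnt5b (chromosome 6, 119432531 to 119544347, minus strand), the nearest relative of Wnt5a, is best known from later cartilage. It stood at 14.8 and 16.4 CPM in wild type and at 13.02 and 13.8 CPM in Shh null. Both null values were thus lower, by 14.2% of the mean, but the gene was not called (log2 fold change -0.20, 95% interval -0.52 to 0.11, limma adjusted p = 0.470). The ratio of Wnt5a to Wnt5b within a library, which no scaling of libraries can alter, was 5.95 and 5.47 in wild type, against 3.98 and 3.94 in Shh null. The 2 genotypes did not overlap in this ratio.

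Wnt11 (chromosome 7, 98835112 to 98855195, plus strand), like Wnt5a known mainly for signalling apart from β-catenin, had higher values in the null. Its level was 13.7 and 11.3 CPM in wild type against 23.4 and 18.02 CPM in Shh null. Every null value exceeded every wild-type value, with means 65.6% apart (12.5 ± 1.72 and 20.7 ± 3.79 CPM, SD, n = 2). The gene missed the threshold in limma (log2 fold change 0.68, 95% interval 0.31 to 1.05, adjusted p = 0.0680) and in edgeR (0.0646), and passed it in DESeq2 (0.0232). The authors' deposited table lists a false discovery rate of 0.0126. A processed pseudogene on the other strand, Gm8398, overlaps Wnt11 exons and held 315 of the 3402 runs of 50 bases of the Wnt11 transcript, and it was not analysed here.

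Wnt4 (chromosome 4, 137277489 to 137299726, plus strand), which turns mesenchyme into epithelium in the kidney, stood at 9.26 and 7.77 CPM in wild type and at 16.2 and 13.3 CPM in Shh null. The groups were apart, with means of 8.52 ± 1.06 and 14.7 ± 2.09 CPM (SD, n = 2), 73.1% higher in the null. It fell just short in limma (log2 fold change 0.72, 95% interval 0.36 to 1.09, adjusted p = 0.0524) and in edgeR (0.0504). It passed in DESeq2 (0.0227), and in limma when genes under 5 CPM were left out (0.0493). In the authors' deposited table its false discovery rate is 0.00714. The transcript shares 178 of its 4107 runs of 50 bases with transcripts of 665 other genes, none of them a Wnt.

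Wnt6 (chromosome 1, 74771892 to 74785322, plus strand), made in the ectoderm that covers the bud, was measured at 26.8 and 18.5 CPM in wild type and at 39.3 and 35.2 CPM in Shh null. The wild-type libraries differed 1.45-fold from each other, and both stayed below the null libraries. The means differed by 64.4% (22.7 ± 5.87 and 37.2 ± 2.86 CPM, SD, n = 2; log2 fold change 0.71, 95% interval 0.34 to 1.09, limma adjusted p = 0.0595). Of the other tools, edgeR gave an adjusted p of 0.0647 and DESeq2 of 0.00908, and the false discovery rate in the authors' deposited table was 0.00721. Leaving out wild type 1, the higher of the wild-type libraries for this gene, brought Wnt6, Wnt4 and Wnt11 past the threshold (limma adjusted p = 9.12e-05, 0.0120 and 0.00925), a fit in which 2.04% of tested genes were called higher and the lone wild-type library was assumed to vary like the null ones. With the replicate number as a block they passed as well (0.0109, 0.0274 and 0.0274), where 1.66% were.

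**Figure D2:**
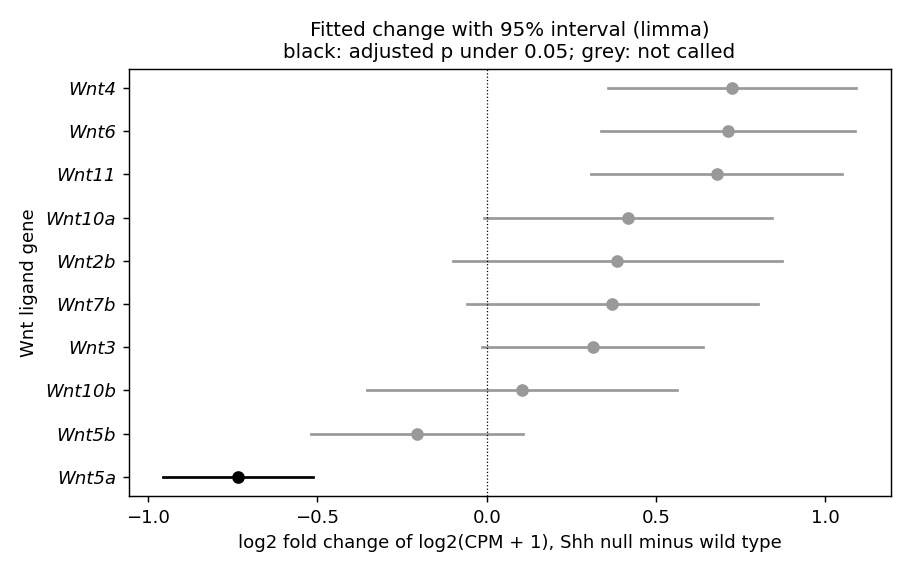
Fitted log2 fold change (Shh null minus wild type, on log2(CPM + 1)) of each Wnt ligand gene, with points for the estimate and lines for the 95% interval of the limma fit; black marks an adjusted p under 0.05. Wnt5a at -0.73 is the only black point, and the intervals of Wnt4, Wnt6 and Wnt11 lie above 0 before adjustment for the number of genes tested.

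The remaining ectodermal ligands were not called, and their values were mostly a little higher in the null. Wnt3 (chromosome 11, 103774150 to 103817957, plus strand), which the mouse needs in limb ectoderm to form the ridge, was at 11.7 and 10.4 CPM in wild type and 13.5 and 14.4 CPM in Shh null. Its groups did not overlap, and its interval ran from -0.01 to 0.64 on the log2 scale (estimate 0.31, limma adjusted p = 0.285). Wnt7b (chromosome 15, 85535437 to 85582473, minus strand), a growth signal from epithelium best studied in the lung, was at 11.2 and 7.38 CPM in wild type and 12.6 and 11.6 CPM in Shh null. The null values lay above, but wild type 1 nearly reached them (log2 fold change 0.37, 95% interval -0.06 to 0.80, limma adjusted p = 0.337). An antisense gene, AU022754, overlaps Wnt7b and was at 0.229 to 0.421 CPM in the 4 libraries.

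Wnt10a and Wnt10b are close relatives known from teeth, hair and bone. Wnt10a (chromosome 1, 74791516 to 74804179, plus strand) was at 1.44 and 1.16 CPM in wild type and 2.12 and 2.01 CPM in Shh null. The groups were apart, with 62 wild-type and 95 null reads behind them (log2 fold change 0.42, 95% interval -0.01 to 0.84, limma adjusted p = 0.276). At this level the added 1 CPM draws the estimate toward 0. The means differed 1.59-fold, and edgeR gave a log2 fold change of 0.65. Wnt10b (chromosome 15, 98770712 to 98778150, minus strand), whose human counterpart is mutated in a form of split hand and foot, was at 5.93 and 3.80 CPM in wild type and 5.47 and 4.94 CPM in Shh null. It was the member whose groups overlapped, with both null values between the wild-type values (log2 fold change 0.10, 95% interval -0.35 to 0.56, limma adjusted p = 0.829). Wnt2b (chromosome 3, 104945272 to 104961921, minus strand), a ligand of the lateral plate near the forelimb field, was at 0.948 and 1.49 CPM in wild type and 2.24 and 1.56 CPM in Shh null. The second wild-type library came close to the second null library, and the gene was not called (log2 fold change 0.39, 95% interval -0.10 to 0.87, limma adjusted p = 0.374). Its means differed 1.56-fold, and edgeR, without the added 1 CPM, gave a log2 fold change of 0.68.

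The summed level of the ligands overlapped between genotypes in CPM but not per length. Added over the 10 genes, the ligands made up 184.1 and 167.9 CPM in wild type and 179.7 and 169.3 CPM in Shh null, and the groups overlapped. Per kilobase of exon the sum was 43.3 and 37.5 CPM per kb in wild type and 48.9 and 45.4 CPM per kb in Shh null, 1.17-fold higher in the null and without overlap. Without Wnt5a the sum was 95.9 and 78.2 CPM in wild type and 127.9 and 114.8 CPM in Shh null. This sum, taken without the member called lower, was 1.39-fold higher in the null. On the per-length scale Wnt5a was 26.1% and 30.6% of the members' sum in wild type, against 13.5% and 15.3% in Shh null. The share of Wnt6 was 28.3% and 22.5% in wild type, against 36.6% and 35.4% in Shh null. Ratios of Wnt5a to Wnt6, Wnt4 and Wnt11 restate the values above. Wnt5a was lower and these genes higher in both null libraries, so the ratios could not overlap. The CPM ratio of Wnt5a to Wnt6, not corrected for length, was 3.29 and 4.85 in wild type but 1.32 and 1.55 in Shh null. The ratio of Wnt5a to Wnt4 was 9.53 and 11.6 in wild type but 3.19 and 4.11 in Shh null, and that of Wnt5a to Wnt11 was 6.43 and 7.95, then 2.21 and 3.02. No test was made of these sums and ratios, since with 2 libraries a side the smallest two-sided p of an exact permutation test is 0.333.

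**Figure D3:**
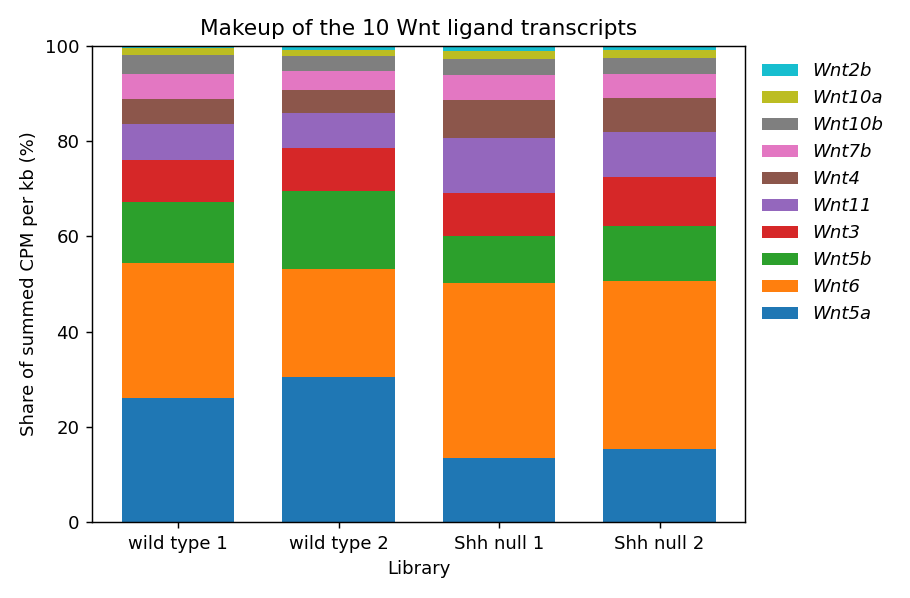
Share of each Wnt ligand gene in the summed CPM per kb of the 10 genes (bars stack to 100%), 1 bar per library. The Wnt5a block at the foot takes 26.1% and 30.6% in wild type, against 13.5% and 15.3% in Shh null, and the Wnt6 block above it takes 36.6% and 35.4% in Shh null.

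Ligands that lie side by side in the genome were compared next. Wnt6 and Wnt10a point the same way on chromosome 1 with 6193 bases between them. The ratio of Wnt6 to Wnt10a was 18.6 and 16.0 in wild type, against 18.6 and 17.5 in Shh null, so that the genotypes overlapped while both genes had their null values above their wild-type values. Wnt3 lies 24328 bases from Wnt9b. Wnt9b was at 7.16 and 4.02 CPM in wild type and 4.603 and 4.07 CPM in Shh null, with overlapping groups (log2 fold change -0.26, limma adjusted p = 0.584). Wnt10b lies 11706 bases from Wnt1, which was not analysed here.

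Promoter windows from RefSeq (GRCm38.p6, 250 bases before to 50 after the gene start) were found for 7 of the 10 members, and for Wnt5a, Wnt7b and Wnt10a no window was used. The upstream stretches of Wnt4, Wnt6 and Wnt11 are shown, as the members with the largest positive log2 fold changes, up to the first annotated start of transcription. Capitals mark the GC box GGGCGG, the TCF/LEF letters CTTTGAT and the TATA box TATAAA, each searched on both strands, and overlapping matches run together.
Wnt4, chr4:137277385-137277488, plus strand: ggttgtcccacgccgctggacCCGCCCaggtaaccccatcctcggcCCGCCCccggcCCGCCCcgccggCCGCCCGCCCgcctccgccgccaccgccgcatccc
Wnt6, chr1:74771642-74771891, plus strand: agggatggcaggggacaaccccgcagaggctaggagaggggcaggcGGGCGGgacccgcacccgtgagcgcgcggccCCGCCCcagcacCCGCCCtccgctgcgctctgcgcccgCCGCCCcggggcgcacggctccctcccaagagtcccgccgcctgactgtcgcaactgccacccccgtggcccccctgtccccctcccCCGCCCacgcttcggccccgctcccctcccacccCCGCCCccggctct
Wnt11, chr7:98834862-98835111, plus strand: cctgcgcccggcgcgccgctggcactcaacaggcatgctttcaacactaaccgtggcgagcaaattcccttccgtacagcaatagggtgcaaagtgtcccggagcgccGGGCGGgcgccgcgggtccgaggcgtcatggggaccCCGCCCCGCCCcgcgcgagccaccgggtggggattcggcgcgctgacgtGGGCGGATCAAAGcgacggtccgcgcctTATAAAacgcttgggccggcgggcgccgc
The 250 bases before the RefSeq start held 8 GC boxes in Wnt4, of which 5 lie in the printed stretch and the others after the first annotated start, where the print ends. Wnt6 held 6, and 0.886% of the 32851 windows hold 6 or more. The 250 bases were 85.2% G and C in Wnt4, 79.6% in Wnt6 and 70.8% in Wnt11. The median over all windows was 52.4%, and the shares of windows given here were not matched for this. The printed Wnt11 window had 4 GC boxes, together with 1 TCF/LEF match 51 bases and 1 TATA box 29 bases before its start. A second Wnt11 window, chr7:98838595-98838894, held none of these motifs and was 56.8% G and C. Of all windows, 3.21% hold the TCF/LEF letters and 12.4% the TATA box. The windows of the other members held fewer GC boxes, with 3 in Wnt2b, 2 in Wnt3, 0 in Wnt10b and 0 to 2 in the Wnt5b windows, while 32.7% of all windows hold at least 1. A TCF/LEF match also stood in 1 Wnt5b window, 71 bases before its start. The part of any of these motifs in the Wnt values was not tested. The GLI letters GACCACCCA, bound by the transcription factors of hedgehog signalling, were in none of the 10 member windows searched and in 0.225% of all windows.

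The cells behind the ligands were checked through marker genes. The labelled tissue was checked first: the limb mesenchyme gene Prrx1 was at 430.7 to 654 CPM and the forelimb gene Tbx5 at 61.5 to 80.2 CPM, while of the hindlimb genes Pitx1 stayed under 0.5 CPM and Tbx4 was at 3.11 to 4.53 CPM. The 15 surface ectoderm markers summed to 549 and 569 CPM in wild type and 647 and 650 CPM in Shh null, 1.16-fold higher, with 0 called, and 11 of the 15 had both null libraries above both wild-type libraries, a pattern of 25.1% of all tested genes. The 8 mesenchyme markers summed to 1449 and 1529 CPM in wild type and 1833 and 1923 CPM in Shh null. Of them 3 were called higher and 1 (Fgf10) lower, where 1.24% of all tested genes were called in each direction. The 6 macrophage markers, 5 of them in the table, summed to 7.60 to 7.86 CPM in wild type and 14.0 to 16.4 in Shh null. The 5 genes listed as lateral plate and trunk markers, 4 of them in the table, summed to 77.2 and 76.6 CPM in wild type and 99.4 and 84.9 CPM in Shh null. Of these, Pax1 and Hoxb9 were called higher, 4.37-fold and 4.20-fold (limma adjusted p = 0.00112 and 0.00713). Meox1 went the other way, at 0.732-fold, and was not called (limma adjusted p = 0.264). Tbx18, the largest part of the sum, was at 1.12-fold and was not called either (limma adjusted p = 0.521). The listed genes went different ways, and Pax1 is also an anterior limb gene. The amount of trunk tissue was therefore not read from them. The 10 ridge markers summed to 217 and 179 CPM in wild type and 150 and 163 CPM in Shh null. Of 8 tested, 3 (Fgf8, Fgf4 and Fgf9) were called lower, where 1.24% of all tested genes were. Bmp4 (0.777-fold) and Cd44 (0.817-fold) were lower and not called, and Sp8 was at 0.997-fold. Dlx5 was 2.43-fold higher but not called (limma adjusted p = 0.0728). Trp63, also among the ectoderm markers, was at 1.13-fold. The number of ridge cells was not read from this sum. Red blood cell markers summed to 10935 CPM in wild type 1 and to between 2923 and 6303 CPM in the other libraries. The part of these shifts in the Wnt values was not tested, and in whole limb buds a different number of cells and a different amount of RNA per cell cannot be told apart.

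The libraries held between 18456502 and 29620468 reads assigned to genes. Shh itself stood at 11.4 and 7.88 CPM in wild type and at 3.15 and 2.42 CPM in Shh null (limma adjusted p = 0.00615). The Y-linked gene Ddx3y was at 119 and 106 CPM in wild type and 39.1 and 42.3 CPM in Shh null (limma adjusted p = 0.000137). Xist was at 225 and 152 CPM in wild type and 522 and 468 CPM in Shh null (limma adjusted p = 0.00215). The sex makeup of the libraries thus differed with genotype, and the 2 cannot be told apart here. The part of this difference in the Wnt values was not tested.

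Genes that work with these ligands at the limb's dorsal face and ridge were mixed. Wnt7a, the dorsal ectoderm signal, was at 7.12 and 7.49 CPM in wild type and 6.35 and 6.31 CPM in Shh null (adjusted p = 0.581), and its mesenchymal target Lmx1b at 10.7 and 10.247 CPM against 13.1 and 11.4 CPM (0.506). En1, which keeps Wnt7a out of ventral ectoderm, was at 3.54 and 3.53 CPM in wild type and 5.76 and 6.999 CPM in Shh null, and was not called (limma adjusted p = 0.0713). The ridge signal genes Fgf8 and Fgf4 were called lower (limma adjusted p = 0.0126 and 1.95e-05), whereas Bmp2 (0.268), Bmp4 (0.162) and Bmp7 (0.393) were not called.

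Beyond the ligands, most pathway genes that changed were R-spondins and secreted antagonists, which tune Wnt strength. Over 8 lists with 70 distinct genes, 60 genes were tested, 4 were called higher and 2 lower, where 1.24% of all tested genes were called in each direction. In the R-spondin axis, whose ligands keep Frizzled receptors on the cell surface, 1 of 9 tested genes rose and 1 fell. Rspo3 was at 29.4 and 28.9 CPM in wild type and 12.4 and 11.5 CPM in Shh null, a fall of 2.44-fold (log2 fold change -1.22 ± 0.13 SE, limma adjusted p = 0.00141). Rspo4, known for its part in nail formation, went from 14.6 and 21.4 CPM to 39.5 and 36.0 CPM, a rise of 2.09-fold (log2 fold change 1.05 ± 0.17 SE, limma adjusted p = 0.0141). The libraries were apart in both genes. Rspo4 lost its call when Shh null 1 (adjusted p = 0.187) or Shh null 2 (0.0677) was left out, and Rspo3 kept its call in each of the 13 alternatives run.

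Of 8 tested secreted antagonists, 2 rose and 1 fell, where 1.24% of all tested genes were called in each direction. Wif1, which binds Wnt proteins directly, rose 1.89-fold from 15.9 and 17.1 CPM to 29.4 and 33.0 CPM (limma adjusted p = 0.00842). Dkk2, which binds the Lrp co-receptors, rose 1.62-fold from 10.7 and 10.6 CPM to 18.04 and 16.4 CPM, near the threshold (0.0457). Frzb, a soluble Frizzled-like protein made in early cartilage, fell 1.75-fold from 109.2 and 101.6 CPM to 62.2 and 58.0 CPM (limma adjusted p = 0.00361). The calls of Wif1 and Dkk2 ended without either Shh null library (0.0640 and 0.0677 for Wif1, 0.333 and 0.102 for Dkk2), and that of Dkk2 also without wild type 1 (0.0588), with quantile normalization (0.0784) and with no filter on low values (0.101).

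Of 10 tested canonical target and feedback genes 1 rose, the inhibitor Nkd1, from 21.0 and 21.1 CPM to 39.1 and 32.0 CPM (limma adjusted p = 0.0224). In this list edgeR called 2 genes higher and DESeq2 4. Of all tested genes, 1.24% were called higher by limma, 1.28% by edgeR and 1.91% by DESeq2. Axin2, a feedback inhibitor named here after its values were seen, was at 44.0 and 39.8 CPM in wild type and 71.5 and 56.5 CPM in Shh null, just short of the limma call (adjusted p = 0.05003), and the authors' deposited table gives a false discovery rate of 0.00512. In 6 of the 10 both null libraries lay above both wild-type libraries (25.1% of all tested genes), and the median log2 fold change was 0.41. Of these, Lef1, Rnf43 and Dkk1 also stand in other lists. Sp5, listed but below the filter on low values, went the other way. It was at 0.807 and 0.937 CPM in wild type and 0.456 and 0.320 CPM in Shh null. The call of Nkd1 ended without Shh null 1 (0.234) and with no filter on low values (0.0533).

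No call was made by limma or edgeR in the other 5 lists. At an unadjusted p under 0.05 in limma, 4 receptor genes were higher and 2 lower of 15, and 3 planar polarity genes higher and 1 lower of 10, where 9.5% of all tested genes were higher and 9.02% lower. In the same way 1 of 12 canonical transducers, Lef1, was higher, as was 1 of 2 genes of lipidation and secretion and 0 of 4 other Wnt ligands. DESeq2 called 1 higher in each of the receptor, transducer and polarity lists, against 1.91% of all tested genes. The receptor and polarity lists share Fzd3, Fzd6, Ror1 and Ror2. Ror1 (17.5 and 15.9 CPM in wild type, 23.8 and 24.6 CPM in Shh null) had the largest receptor difference, before Fzd6 (31.3 and 32.4 CPM against 50.1 and 40.3 CPM). Ror1 and Ror2, receptors of Wnt5a, had log2 fold changes of 0.51 and 0.21 and were not called (limma adjusted p = 0.0741 and 0.381). The secretion genes Porcn (6.18 and 6.89 CPM, then 9.70 and 7.41) and Wls (125.8 and 127.2 CPM, then 143.2 and 167.8) were not called (adjusted p = 0.344 and 0.182), and neither were the polarity genes Prickle2 (10.32 and 11.1 CPM, then 15.6 and 16.5) and Ror1, nor the transducers Lef1 (26.6 and 25.5 CPM, then 41.7 and 33.6) and Dvl3 (7.05 and 9.09 CPM, then 11.2 and 8.69).

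**Figure D4:**
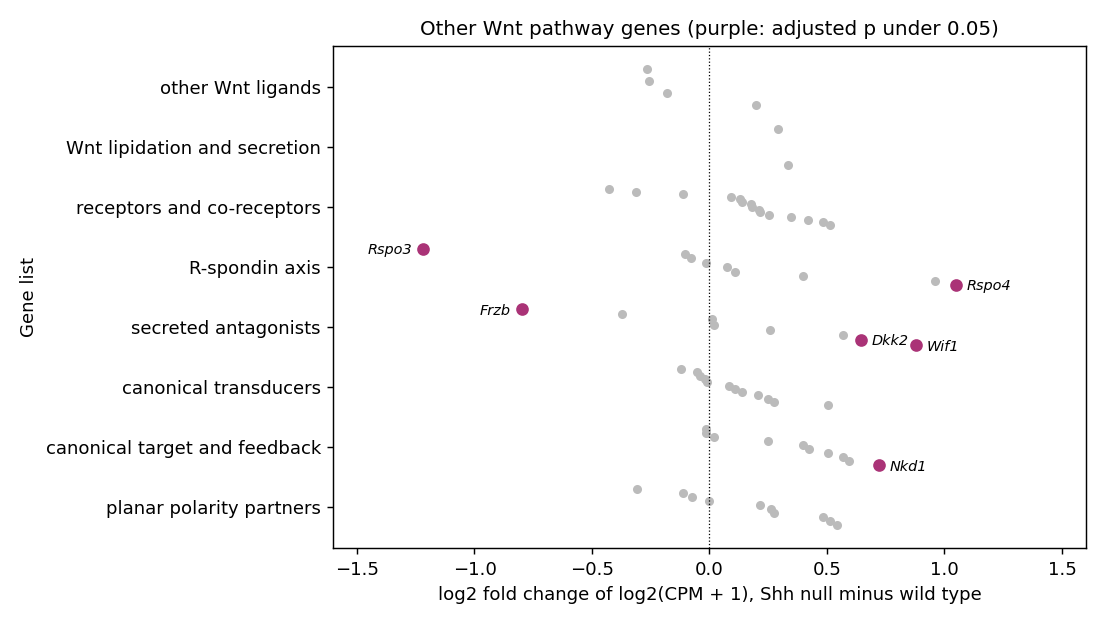
Fitted log2 fold change (Shh null minus wild type, on log2(CPM + 1)) of every tested gene in 8 lists of Wnt pathway genes, 1 point per gene; some genes stand in more than 1 list. Purple points with names passed an adjusted p under 0.05 in limma, from Rspo3 at -1.22 to Rspo4 at 1.05.

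Of the Wnt ligands outside the 10, Wnt9b and Wnt16 had the largest differences among the tested ones. Wnt16 was at 1.51 and 1.54 CPM in wild type and 1.58 and 0.732 CPM in Shh null (limma adjusted p = 0.588). Wnt3a was below the filter on low values, and is named after its values were seen. It had 0 and 3 reads in wild type and 20 and 10 reads in Shh null, a pooled ratio of 10.1 with a wide 95% counting interval of 3.16 to 52.0. A count of 0 allows up to 0.105 CPM in wild type 1, and the null levels were 0.829 and 0.457 CPM. The authors' deposited table lists Wnt3a at a log2 fold change of 3.18 with a false discovery rate of 0.0145. With no filter on low values, limma on log2(CPM + 1) gave 0.60 with an adjusted p of 0.115. These 2 results are on unlike scales, since the added 1 CPM exceeds every Wnt3a value.

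Over the 4 libraries, the genes whose pattern lay nearest to Wnt5a were Slc1a4, Eda2r and Col19a1, at distances of 0.0508, 0.0564 and 0.0792 on the centred log2(CPM + 1) scale. Unnamed gene models (Gm and Rik symbols) were left out of this ranking. The nearest to Wnt4, the member with the next largest change, were Irx2, Eif2c4 and Pvrl4, at 0.0464, 0.0502 and 0.0521. The added 1 CPM shrinks differences in low genes, so nearness here is not a like fold change. Eda2r went from 4.25 and 4.30 CPM in wild type to 1.95 and 2.20 in Shh null. Col19a1 went from 2.04 and 1.87 to 0.746 and 0.869. Both fell more steeply than Wnt5a (1.67-fold), while Slc1a4 went from 32.6 and 31.7 to 18.5 and 19.9. With 4 libraries such nearness is a description of these values only.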

How the data were processed

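Forelimb RNA was extracted with TRIzol, per the labels' protocols. The submitters' processing notes name TopHat2 2.0.9, SAMtools, HTSeq 0.5.4p5, edgeR 3.4.2 and build mm10; no source used here gives the annotation or says whether counting was stranded. The authors deposited a normalized signal per gene and library. All values (100%, tolerance 0.001 reads) were whole multiples of 1 read, and TMM factors recomputed from those reads gave the deposited scale, hence CPM. The authors' deposited table gives log2 fold changes, p-values and false discovery rates, quoted only where named.

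Genes with at least 1 CPM in at least 2 libraries (13224; 4488 below) were fitted as log2(CPM + 1) with limma 3.58.1 in R 4.3.3, genotype as the only term, Benjamini-Hochberg over all of them, threshold 0.05. All 10 members passed this filter. edgeR 4.0.16 and DESeq2 1.42.0 were run on recovered reads. Counting intervals (95%, exact binomial, pooled reads) and the limit of 3 reads behind a 0 cover counting error only. Coordinates and exon lengths come from GENCODE M21. Replicates differed beyond sampling noise (chi-square per degree of freedom 22.4 in wild type, 14.8 in Shh null). On simulated counts for this comparison over 13090 genes, limma recovered 40.3% of 1.5-fold, 86.6% of 2-fold and 100% of 4-fold changes, and called 4 of 12890 unchanged genes. Changes were put only into genes with a mean above 2 CPM, so genes as low as Wnt2b and Wnt10a were not covered. Each simulated gene took the spread typical of its level, without gene-specific or library-wide differences, so these rates may be optimistic. Members and lists were chosen with earlier results of these data known. Named genes were the 10 members, Shh, called genes of each list or its 2 largest changes, genomic neighbours, 8 dorsal and ridge genes and the 3 genes nearest in pattern to 2 members. Alternatives were other pseudocounts, filters, scalings, tools, a replicate block and leaving out each library.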

Additional observations from a re-analysis of the deposited data

How the results depend on the processing

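Over 13 other settings of the fit, no Wnt ligand changed direction except Wnt10b, whose log2 fold change ran from -0.16 (without wild type 2) to 0.37 without single libraries. Wnt5a was called in each of them except without Shh null 1. Members called higher, 0 in the fit reported, numbered 1 with a filter at 5 CPM, 3 with DESeq2, 3 with the replicate block and 0 to 3 without single libraries; members called lower numbered 0 to 1 without single libraries. Over all genes, 164 were called higher and 164 lower, against 79 and 91 with no filter on low values, 253 and 273 with DESeq2, 16 to 373 higher and 45 to 376 lower without single libraries. Pathway genes called higher, 4 in the fit reported, numbered 2 with no filter, 9 with DESeq2 and 0 to 8 without single libraries. Replicate numbers in the titles have no stated meaning; same-numbered libraries deviated from their group means at a correlation of -0.20 over genes. A crossed pairing in the replicate block, added after seeing the data, called 641 genes higher and 745 lower, 3 members higher and 15 pathway genes higher. The replicate block gave 220 higher and 176 lower over all genes. Few reads stood behind Wnt2b (27 to 54 per library), Wnt10a (21 to 51) and Wnt3a (0 to 20). Wnt2b and Wnt10a fell below the filter at 5 CPM.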

Other observations

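Within wild type, Wnt6, Wnt7b and Wnt10b differed more between the libraries than the other members apart from Wnt2b. Wild type 1 stood above wild type 2 by 1.45-fold for Wnt6, 1.52-fold for Wnt7b and 1.56-fold for Wnt10b, whereas Wnt5a (0.983) and Wnt5b (0.904) were near 1. The ratio was 1.13 for Wnt3, 1.19 for Wnt4, 1.215 for Wnt11 and 1.24 for Wnt10a. Wnt2b had a ratio of 0.637 on few reads. The Shh null libraries differed by 1.11-fold, 1.09-fold and 1.11-fold for the same 3 genes. Wnt8a was at 0.595 to 0.995 CPM and Wnt9a at 0.165 to 0.316 CPM in the 4 libraries, both below the filter on low values. Dkk4, an antagonist below the filter, was at 0.562 and 0.771 CPM in wild type and at 0.0415 and 0 CPM in Shh null, where a count of 0 allows up to 0.137 CPM.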
